A study of Ovis aries and Mus musculus with 10 samples.

Results

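The microRNAs mmu-miR-182, mmu-miR-183 and mmu-miR-96, called miR-182, miR-183 and miR-96 below, are made from 1 cluster of genes and were followed here through mammary development in sheep and mouse. They were chosen by name, as 3 of the 567 mouse miRNAs on the array, and all 3 were among the 213 miRNAs detected on at least 3 arrays and therefore tested. Total RNA of snap-frozen mammary tissue was measured on 10 one-colour Agilent arrays with mouse probes, 5 from sheep and 5 from CD1 mice. The sheep groups were cycle day 15 (1 array), gestation days 14, 64 and 125 (1 array each) and lactation day 60 (1 array). The mouse groups were virgin (1 array), gestation days 10 and 17 (1 array each) and lactation days 2 and 10 (1 array each). The labels name no breed of sheep, no treatment and no genetic modification, and they do not say how many animals an array stands for or whether animals were pooled.

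The members of this cluster are cut from a shared primary transcript, and their seeds, the bases that pair with target mRNAs, are closely related. The cluster is best known from sensory organs, where it is abundant in retinal photoreceptors and hair cells, and changes in miR-96 cause deafness. In breast cancer cell lines miR-96 and miR-182 are known to repress FOXO1, a transcription factor that restrains proliferation. The question addressed was whether the 3 miRNAs moved together, and whether they moved in opposite directions in the lactating glands of the 2 species.

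The positions that the scanner files give for the probe targets lie on mouse chromosome 6 (mm9) within 3768 bases. The miR-182 targets are at chr6:30115962-30115976 and chr6:30115962-30115977, and the miR-96 targets at chr6:30119506-30119526 and chr6:30119506-30119527. The miR-183 targets are at chr6:30119711-30119728 and chr6:30119711-30119729. The miR-96 and miR-183 targets are neighbours, and 3528 bases separate the miR-182 and miR-96 targets. Each member had 2 probes, differing by 1 base of target length, with 10 spots each. The targets were 15 and 16 bases long for miR-182, 18 and 19 for miR-183, and 21 and 22 for miR-96. Whether these mouse probes match the sheep miRNAs at every base was not tested. Levels of different members are therefore not set against each other, and each is compared only with itself across arrays. Between the species, a difference in level cannot be told apart from a difference in probe match.

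Levels are given as a percent of the array's reference percentile, which is the 75th percentile of the signal of the 94 miRNAs detected on all 10 arrays. This reference was lowest in lactation in both species. In sheep it was 1998 signal units in the cycle sample, went from 1831 through 1561 to 939 over the gestation days, and ended at 788 in lactation. In mouse it was 598 units in virgin gland, 702 and then 937 in gestation, and 394 and then 246 in lactation. Of the 10 arrays, mouse virgin and mouse gestation day 10 were on slide 2 and the others on slide 1. The miR-200 family, which marks luminal epithelium, was detected with all 5 members on every array, in keeping with the labelled tissue. In whole tissue, fewer cells of a type and less RNA per cell cannot be told apart.

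In sheep, miR-96 was highest in cycle and lowest in lactation, and in mouse it was lowest in virgin gland and highest in lactation. It was detected on all 10 arrays. Its sheep level was 22.8% of the reference in cycle. Gestation gave 9.23% on day 14, 2.70% on day 64 and 9.52% on day 125, and lactation 1.45%. The 3 gestation arrays lay between these ends, with day 64 close above lactation. At lactation day 60 only 2 of 20 spots were well above background, so this value is near the detection limit. Virgin mouse gland had 4.26%, gestation 9.21% on day 10 and 25.98% on day 17, and lactation 46.5% on day 2 and 66.4% on day 10. Each mouse stage was above the stage before it, and the 2 lactation arrays did not overlap with the 2 gestation arrays. The error between spots was at most 0.638 percentage points on any array.

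**Figure D1:**
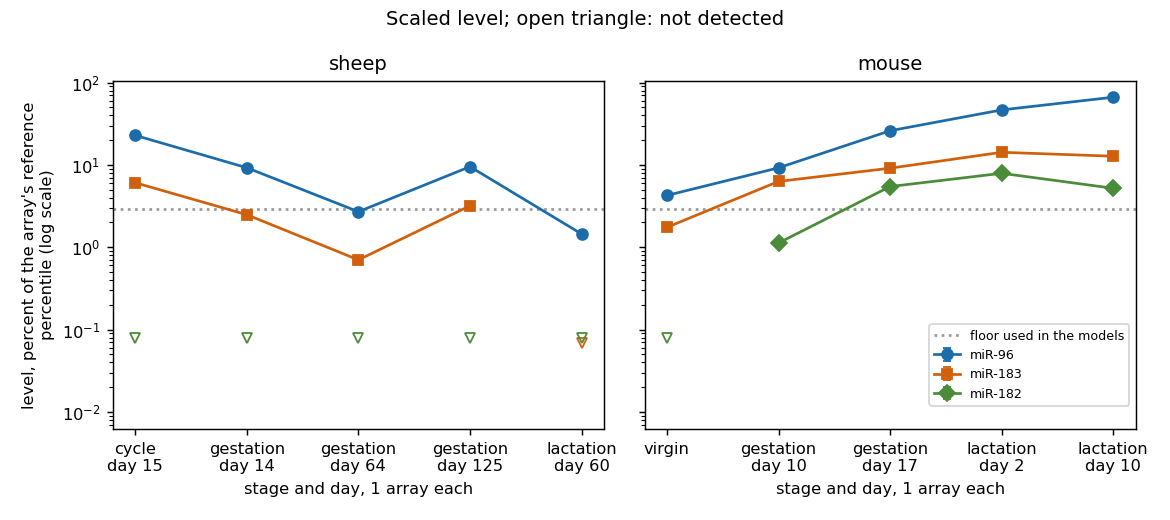
Level of miR-96, miR-183 and miR-182 as percent of the array's reference percentile (log axis) by stage and day, sheep on the left and mouse on the right, 1 array per point; error bars are standard errors between spots, the dotted line is the floor of 2.90% used in the models, and open triangles mark arrays without detection, drawn at an arbitrary height. miR-96 goes from 22.8% to 1.45% in sheep and from 4.26% to 66.4% in mouse, and miR-182 has no detected point in sheep.

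miR-183 followed the same outline. Its sheep level was 6.08% of the reference in cycle. Gestation gave 2.48% on day 14, 0.702% on day 64 and 3.19% on day 125, and lactation 0.107%, where it was not detected. The highest sheep value was again in cycle, and lactation was the only sheep array without detection. Virgin mouse gland had 1.74%, gestation 6.30% on day 10 and 9.12% on day 17, and lactation 14.2% on day 2 and 12.7% on day 10. The virgin gland was lowest, with 3 of 20 spots well above background, and both lactation arrays lay above both gestation arrays.

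With these mouse probes, miR-182 was seen in mouse gland alone. None of the 5 sheep arrays detected it, and their background-subtracted levels lay between -0.731% and -0.116% of the reference. In mouse it was not detected in virgin gland, at -0.188%, and its level was 1.13% on gestation day 10, 5.46% on gestation day 17, 7.91% on lactation day 2 and 5.20% on lactation day 10. Averaged over both probes, lactation day 10 was thus below gestation day 17, and the mouse lactation and gestation arrays overlapped. On the longer probe alone they did not, with 3.46% and 10.3% in gestation and 15.8% and 12.2% in lactation. At gestation day 10, 4 of 20 spots were well above background.

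The paired probes showed where the signal of each miRNA came from. The longer miR-96 probe gave 1.73 to 2.05 times the signal of the shorter one on the 9 arrays with both above 10 units, with a median of 1.82. For miR-183 this ratio was 3.94 to 4.94 on 4 such arrays, with a median of 4.503. For miR-182 the shorter probe never had a spot well above background. The longer miR-182 probe carried 5.26 units in virgin gland, 24.3 and then 96.6 units in gestation, and 62.3 and then 29.9 units in lactation. The mouse values of miR-182 therefore rest on 1 probe of 10 spots, and the sheep signal of that same probe was below 0 on all 5 arrays.

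**Figure D2:**
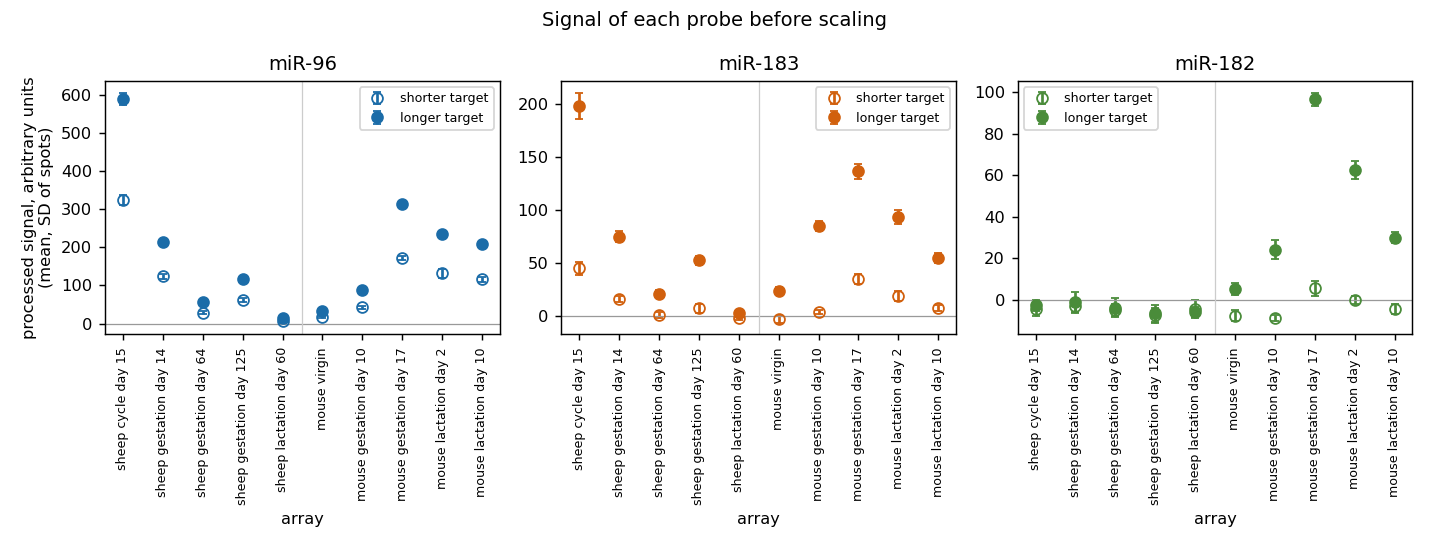
Background-subtracted signal (arbitrary units, linear axis) of the shorter-target probe (open) and longer-target probe (filled) of miR-96, miR-183 and miR-182 on each of the 10 arrays, with the SD between spots; the vertical line separates sheep from mouse. The longer probe is brighter wherever a member is clearly detected, and for miR-182 it reaches 96.6 units at mouse gestation day 17 while the shorter probe stays near 0.

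The steps between consecutive stages, each 1 array against 1 array and so without a test, were shared by miR-96 and miR-183 in sheep. From cycle to gestation day 14, the log2 difference was -1.31 ± 0.01 (standard error between spots) for miR-96 and -1.29 ± 0.04 for miR-183. From gestation day 14 to day 64 the differences were -1.77 ± 0.04 and -1.82 ± 0.10. From day 64 to day 125 the sign of both turned, with 1.82 ± 0.04 and 2.18 ± 0.11. The sheep gestation arrays were therefore not alike, and for miR-96 day 125 was 3.52-fold above day 64. At lactation day 60 neither was well above background on most spots of a probe, so the last step is a bound. For such a step the fold is taken against the dimmest probe well above background on the dim array. From gestation day 125 to lactation day 60, miR-96 was at least 4.44-fold lower and miR-183 at least 1.49-fold lower.

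In mouse the 2 miRNAs were higher at each step until early lactation. From virgin to gestation day 10 the log2 difference was 1.11 ± 0.04 for miR-96, and miR-183 was at least 1.53-fold higher, since it was near background in virgin gland. From gestation day 10 to 17 the log2 difference was 1.496 ± 0.03 for miR-96 and 0.53 ± 0.04 for miR-183. From gestation day 17 to lactation day 2 it was 0.84 ± 0.02 and 0.64 ± 0.04. From lactation day 2 to day 10 they parted, with 0.51 ± 0.02 for miR-96 and -0.16 ± 0.05 for miR-183. This fall of miR-183 was small, and its longer probe alone went from 23.7% to 22.3% of the reference. miR-182 was at least 1.54-fold higher at gestation day 17 than at day 10, and its log2 differences over the next steps were 0.53 ± 0.04 and -0.60 ± 0.07. Counted over both species, miR-96 and miR-183 moved the same way in 6 of the 7 steps in which both were detected. All 3 members did so in 2 of the 3 steps in which all were detected, each of them in mouse. The exception in each count was the step within mouse lactation. How often other pairs of miRNAs share direction over these steps is not given here. These errors cover spots within arrays, and the spread between animals of 1 stage was not measured.

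From end to end of each series the differences were larger. miR-96 was 15.6-fold higher at mouse lactation day 10 than in virgin gland, on single arrays from different slides. In sheep it was at least 10.7-fold lower at lactation day 60 than in cycle. This is again a lower bound, as the lactation value was near background. In the same way, miR-183 was at least 2.84-fold lower in sheep lactation than in sheep cycle, and at least 3.26-fold higher in mouse lactation than in virgin gland. In lactation, the scaled probe signal of mouse exceeded that of sheep by at least 25.9-fold for miR-96, 6.28-fold for miR-183 and 2.99-fold for miR-182. These folds between species are bounds on the signal of the mouse probes, whose match to the sheep miRNAs was not tested.

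In mouse, the higher miR-96 level in lactation than in late gestation held relative to the reference and not in signal units. The miR-96 signal was 25.5 units in virgin gland, 64.7 and then 243 units in gestation, and 183.5 and then 163 units in lactation. The signal of miR-96 thus peaked at gestation day 17. At lactation day 10 its signal was 0.670 times that of gestation day 17, while its level relative to the reference was 2.56-fold higher. For miR-183 the signal at lactation day 10 was 0.366 times that of gestation day 17 and the scaled level 1.40 times, and for miR-182 the signal was 0.250 times and the scaled level 1.05-fold lower. Against virgin gland, lactation day 10 was higher on both scales, with 6.40 times the signal for miR-96 and at least 1.27 times for miR-183. In sheep, signal and scaled level were lowest together in lactation, with miR-96 at 456 units in cycle, 169, 42.2 and 89.4 units on the successive gestation days, and 11.4 units in lactation. The direction of the mouse difference between gestation day 17 and lactation day 10 thus depended on the scale for miR-96 and miR-183. For miR-182 it was downward on both scales when its probes were averaged. On its longer probe alone the scaled level went up, from 10.3% to 12.2% of the reference, and the signal down.

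**Figure D3:**
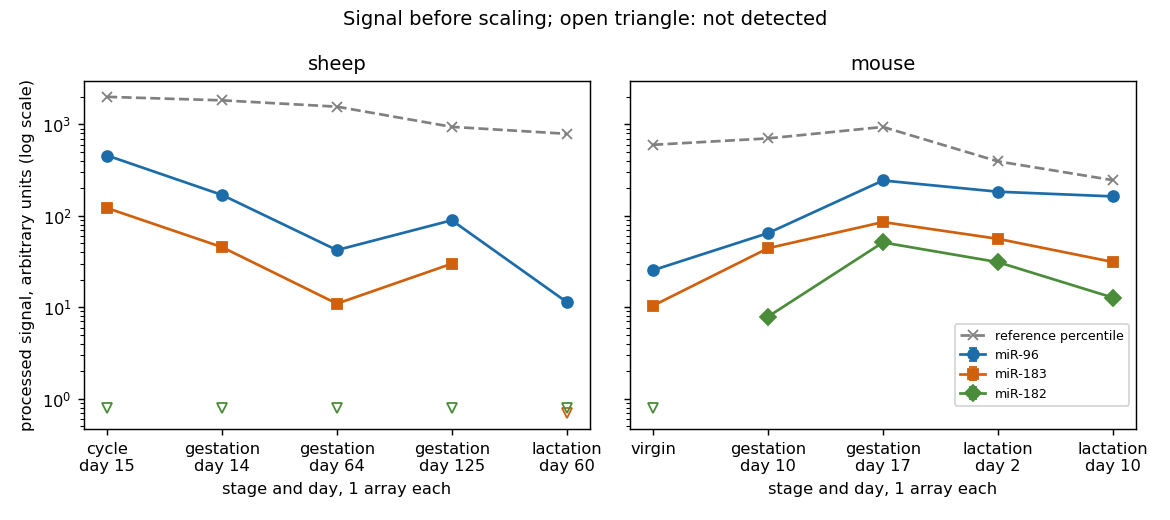
Background-subtracted signal in arbitrary units (log axis) of the 3 miRNAs and of the reference percentile (grey, dashed) by stage and day, sheep left and mouse right, 1 array per point with standard errors between spots; open triangles mark arrays without detection, at an arbitrary height. In mouse the reference falls from 937 units at gestation day 17 to 246 at lactation day 10, and miR-96 from 243 to 163.

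The groups were then tested with limma on log2 levels, with Benjamini-Hochberg adjustment over all 213 miRNAs. Values below 2.90% of the reference were first set to that floor. It comes from the array with the weakest detection and is shared by all, so a value under it can still be well above background on a brighter array, but in the models such values tie. The floor held miR-96 on 2 sheep arrays, miR-183 on 3 sheep arrays and mouse virgin, and miR-182 on all sheep arrays, mouse virgin and mouse gestation day 10. A miRNA is called where the adjusted p is under 0.05. No stage and day was repeated, so p-values measure the spread between days of a stage and, where species are pooled, between species.

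Within mouse, lactation against gestation gave a log2 change of 1.85 ± 0.84 (SE) for miR-96, with means of -0.85 ± 0.36 (SD, n = 2) and -2.69 ± 1.06 (SD, n = 2) and an adjusted p of 0.402. For miR-183 it was 0.83 ± 0.19, with means of -2.89 ± 0.11 and -3.72 ± 0.38 and an adjusted p of 0.198. For miR-182 it was 0.69 ± 0.37 with an adjusted p of 0.451. None of the 3 was called, against 2 of all 213 miRNAs (0.939%) by limma. In limma 32 of the 213 had an unadjusted p under 0.05, and of the members miR-183 did (0.0104). Both lactation arrays lay above both gestation arrays for miR-96 and miR-183, as they did for 46 of the 213 miRNAs (21.6%). On slide 1 alone, which leaves gestation day 17 as the only gestation array, the changes were 1.097 ± 0.95, 0.56 ± 0.11 and 0.23 ± 0.28. Without scaling they were 0.46, -0.55 and -0.35. Without gestation day 17 the miR-183 change was 1.096. That fit leaves gestation day 10, on slide 2, as the only gestation array, against lactation arrays on slide 1. A difference between slides cannot be told apart from a difference between stages there.

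Within sheep, lactation against gestation gave a log2 change of -1.13 ± 0.97 for miR-96, from a gestation mean of -3.98 ± 0.98 (SD, n = 3) to the floor on the 1 lactation array. The limma adjusted p was 1, with an unadjusted p of 0.305. For miR-183 the change was -0.046 ± 0.22 and for miR-182 it was 0, since nearly all these values were at the floor. None of the members was called, and 1 of all 213 miRNAs was (0.469%), while 23 had an unadjusted p under 0.05. With values tied at the floor, lactation was below all gestation arrays for 42 of the 213 miRNAs (19.7%) and for none of the members, since miR-96 and miR-183 were at the floor on gestation day 64 too. For miR-96, the dimmest probe well above background on the lactation array, at 2.14% of the reference, bounded its level below the 2.70% of day 64. For miR-183 that bound lay above the 0.702% of day 64, so these arrays have no order. With a floor 4 times lower, at 0.725% of the reference, the changes were -2.09 ± 0.94 for miR-96 and -1.30 ± 0.85 for miR-183, still not called, with adjusted p of 0.383 and 0.549.

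The change of miR-96 from gestation to lactation had opposite signs in the 2 species. It was the only 1 of the 213 miRNAs (0.469%) that was more than 2-fold lower in sheep lactation and more than 2-fold higher in mouse lactation than in gestation. With arrays left out its sheep change was as small as -0.84, and without scaling its mouse change was 0.46, both less than 2-fold. Taken singly, 21 of the 213 (9.86%) were more than 2-fold lower in sheep and 18 (8.45%) more than 2-fold higher in mouse. A change in these directions of any size was found for 25 of the 213 (11.7%), miR-183 among them. With a floor 4 times lower, 3 of the 213 (1.41%) were more than 2-fold apart in these directions. They were miR-96, miR-181b (-1.87 in sheep and 2.92 in mouse) and miR-210 (-2.09 and 1.14), the last of them named after its values were seen. Non-overlapping lactation and gestation arrays in opposite directions were found for 8 of the 213 (3.76%), none of them a member, with ties at the floor counted as overlap. The species difference itself, sheep change less mouse change, was -2.97 ± 1.29 for miR-96, with an interval of -6.42 to 0.47 at 95% and an adjusted p of 0.576 by limma (unadjusted 0.0757). It was -0.87 ± 0.30 for miR-183, with an adjusted p of 0.527 (unadjusted 0.0370), and -0.69 ± 0.56 for miR-182, with an adjusted p of 0.973. None of the 3 was called, against 2 of 213 (0.939%) and 16 with an unadjusted p under 0.05.

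**Figure D4:**
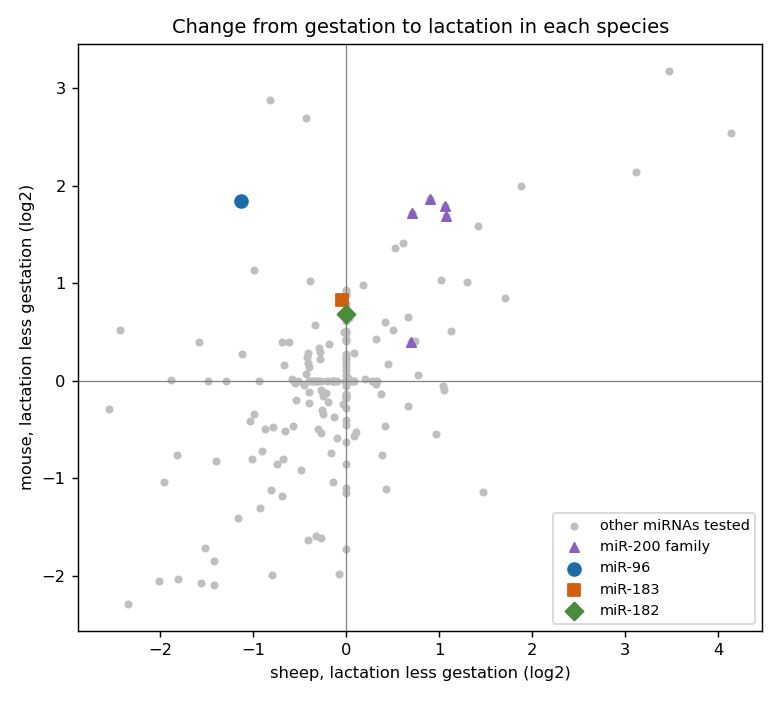
Log2 change from gestation to lactation in sheep (x) and in mouse (y) for the 213 miRNAs tested, 1 point each, from 1 sheep and 2 mouse lactation arrays; coloured symbols are miR-96, miR-183 and miR-182, and purple triangles the 5 members of the miR-200 family. miR-96 lies at -1.13 and 1.85, apart from the miR-200 family, which is above 0 on both axes.

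Set against non-pregnant gland, the species difference was larger. The sheep change from cycle to lactation less the mouse change from virgin to lactation was -3.28 ± 0.36 for miR-183, which was called by limma with an adjusted p of 0.0135. It was -6.69 ± 1.58 for miR-96, with an unadjusted p of 0.0106 and an adjusted p of 0.142, and -1.15 ± 0.69 for miR-182, with an adjusted p of 0.613. Thus 1 of the 3 members was called, against 12 of all 213 miRNAs (5.63%). The levels behind it were highest in cycle among the sheep arrays and lowest in virgin among the mouse arrays, an arrangement found for miR-96, miR-183 and 2 others (4 of 213, or 1.88%), with ties at the floor not counted. Taken singly, 36 of the 213 (16.9%) were lowest in virgin and 36 (16.9%) highest in cycle. The miR-183 call rests on 1 array each for cycle, sheep lactation and virgin, with the last 2 at the floor. Its error comes from other groups, among them sheep gestation with 2 of 3 arrays at the floor. Virgin was on slide 2, and the cycle and lactation arrays of this comparison were on slide 1. It was lost at the same size without sheep gestation day 14 (adjusted p of 0.0516), at a larger size with the lower floor (-6.02, 0.133) and without scaling (-4.98, 0.230), and at a smaller size in the authors' value table (-2.46, 0.118), with normexp background correction (-0.30, 0.743) and with the shorter probe alone (-0.43, 0.932).

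With the species pooled, no member passed the threshold between stage classes. Lactation against gestation gave 0.84 ± 1.18 for miR-96, 0.61 ± 0.54 for miR-183 and 0.43 ± 0.29 for miR-182, with adjusted p of 0.873, 0.719 and 0.556. None was called, against 6 of all 213 miRNAs (2.82%) and 34 with an unadjusted p under 0.05. Lactation against the non-pregnant arrays gave 0.85 ± 1.44, 0.76 ± 0.67 and 0.67 ± 0.36 in the same order. None was called, against 8 of 213 (3.76%) and 40 with an unadjusted p under 0.05. Without sheep cycle, mouse virgin was the only non-pregnant array, on slide 2 and at the floor for miR-183. The miR-183 change in this comparison was then 2.03. Without mouse virgin the change turned to -1.70 for miR-96 and -0.69 for miR-183. Gestation against the non-pregnant arrays gave 0.011 ± 1.31, 0.16 ± 0.61 and 0.24 ± 0.33. None was called, against 1 of 213 (0.469%) and 5 with an unadjusted p under 0.05, and the sign of the miR-96 change was negative in 8 other settings of the processing, slide or species.

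Averaged over stages, the members had lower values on the sheep arrays than on the mouse arrays, without a call. The match of the mouse probes to the sheep miRNAs was not tested, so these are differences of probe signal. In non-pregnant gland the order was the other way for miR-96, at 22.8% of the reference in sheep cycle and 4.26% in mouse virgin, and for miR-183, at 6.08% and 1.74%. The difference, sheep less mouse, was -1.34 ± 1.02 for miR-96, -1.08 ± 0.47 for miR-183 and -0.55 ± 0.25 for miR-182, with adjusted p of 0.399, 0.161 and 0.178 by limma. None was called, against 46 of 213 (21.6%) and 76 with an unadjusted p under 0.05. With the lower floor the miR-182 difference was -1.79 and called, with an adjusted p of 0.0367, where 95 of all 213 miRNAs were called. On slide 1 alone miR-183 (-1.89, adjusted p of 0.00314) and miR-182 (-1.02, adjusted p of 0.0288) were called, among 34 of 213. With the slide as a term miR-182 was called (adjusted p of 0.0106), among 39 of 213. Without sheep cycle, or without mouse virgin, the miR-183 difference was -1.65 and called, with an adjusted p of 0.00567 in each case. In each of these 36 of the 213 miRNAs were called.

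**Figure D5:**
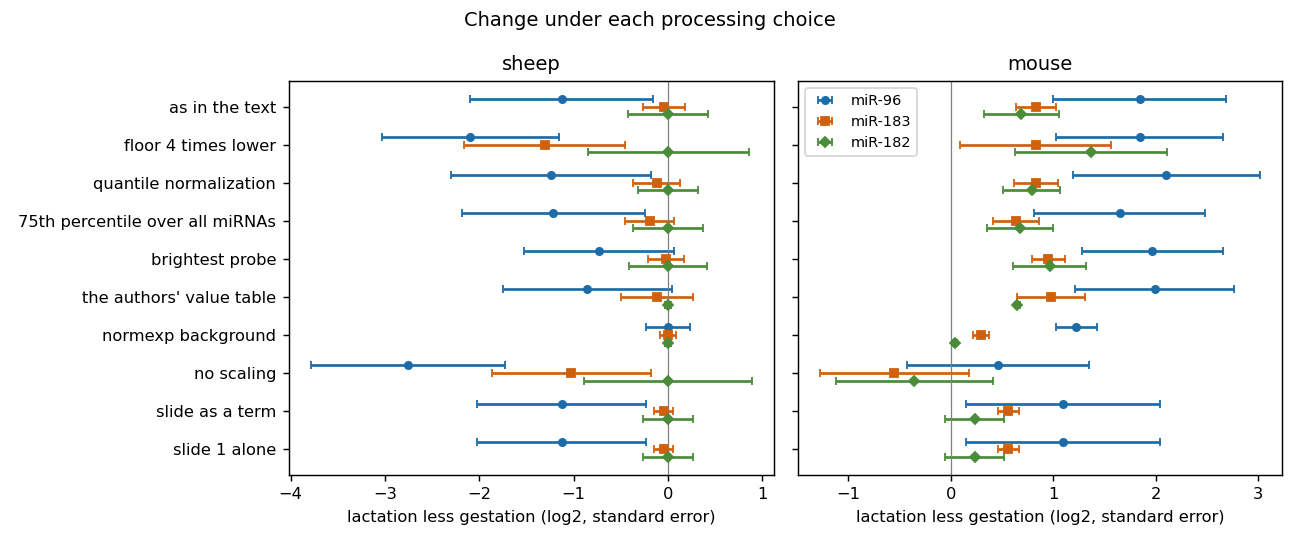
Log2 change from gestation to lactation (x) with its standard error, in sheep on the left and mouse on the right, for miR-96, miR-183 and miR-182 under each processing choice (y). The miR-96 change is 0 or below in sheep under every choice drawn, from -2.76 to 0, and above 0 in mouse, from 0.46 to 2.11, while the mouse changes of miR-183 and miR-182 are below 0 without scaling.

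Markers of cell types also differed between the stages. The summed level of the 5 luminal miR-200 family members, as percent of the reference, was 482 in sheep cycle, 292 to 1137 in sheep gestation and 995 in sheep lactation. In mouse it was 168 in virgin, 273 to 604 in gestation and 1060 to 1406 in lactation. The median log2 change of the family from gestation to lactation was 0.90 in sheep and 1.72 in mouse, against 0 for all miRNAs tested in each, with 0 of 5 called in either. In mouse lactation the family and miR-96 were thus both high, whereas in sheep lactation the family was above cycle and miR-96 was at its lowest. The 5 fibroblast and smooth muscle miRNAs on the array summed to 300.5 in sheep cycle, 122 to 278 in gestation and 83.2 in lactation, and in mouse to 266, 175 to 297 and 65.9 to 93.8. The 5 leukocyte miRNAs summed to 75.5 to 109 in sheep gestation and 23.8 in sheep lactation, and to 51.6 to 60.9 and 30.4 to 39.6 in mouse. The part of these shifts in the members' changes was not tested.

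Other marker lists followed single arrays. The 4 striated muscle miRNAs summed to 194 in virgin mouse, with 4 of 4 detected, 3.13 to 75.3 in mouse gestation and 2.01 to 3.51 in mouse lactation, with 0 of 4 detected. In sheep they were between 1.09 and 9.26. The 3 erythroid miRNAs summed to 597 in virgin mouse, 172 to 185 in mouse gestation and 260 to 396 in mouse lactation, against 15.1 to 62.0 in sheep. The 2 basal epithelial miRNAs reached 94.2 at most, within sheep gestation, and were 16.6 to 21.7 in mouse lactation. The 2 endothelial miRNAs stayed between 113 and 258 on all arrays. Of 4 neurosensory miRNAs, chosen because the cluster is abundant in sense organs, 1 was tested, and the list summed to 3.08 to 7.96 in mouse and 9.38 to 34.8 in sheep. The virgin mouse array, which gives the lowest mouse value of miR-96 and miR-183, thus also held the most muscle and erythroid signal. Its part in the members' changes was not tested.

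Of the other miRNAs of the same region, 1 could be followed. miR-183*, the passenger strand of miR-183, was not detected on any array. Among the 5 other miRNAs with targets within 2 Mb, miR-335-5p and miR-335-3p, miR-29a* and miR-29b* were detected on too few arrays to be tested. The remaining neighbour, miR-29a, had 180% of the reference in sheep cycle, 248%, 356% and 77.9% on the successive gestation days, and 186% in lactation. In mouse it was 166% in virgin, 170% and 117% in gestation, and 139% and 289% in lactation. In sheep gestation it was highest at day 64, where miR-96 and miR-183 were lowest, and lowest at day 125.

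The miRNAs whose course was most like that of the cluster were named by the Pearson correlation of species-centred log2 levels over the 10 arrays, with the mean of the 3 members. Among 119 candidates they were miR-30c (r = 0.95), miR-30e (0.91), miR-365 (0.89), miR-181b (0.87) and miR-362-3p (0.86). These are descriptions over arrays that share slides and scaling. Between members, the same measure was 0.90 for miR-183 and miR-96, 0.77 for miR-182 and miR-183, and 0.68 for miR-182 and miR-96. The levels were floored, and miR-182 was at the floor on all 5 sheep arrays and 2 of 5 mouse arrays. Its correlations therefore rest on its mouse values alone. The same holds for miR-362-3p, which was also at the floor on all 5 sheep arrays. In sheep, miR-365 varied little, from 4.59% to 5.58% of the reference. The miR-200 family followed, from miR-200b (0.77) at rank 9, while miR-29a was at -0.08.

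Of these like miRNAs, miR-181b came nearest in size. Its level was 5.23% of the reference in sheep cycle, 5.95%, 4.33% and 5.22% in gestation and 1.40% in lactation. In mouse it was 1.90% in virgin, 2.74% and 10.2% in gestation, and 29.3% and 54.5% in lactation. Its sheep values in cycle and gestation lay close together, unlike those of miR-96, and its lactation values were lowest in sheep and highest in mouse. Its species difference from gestation to lactation was -3.70 ± 1.06, with an adjusted p of 0.504 by limma. miR-30c ran from 36.0% in cycle to 22.1% in lactation in sheep and from 32.6% in virgin to 68.2% at lactation day 10 in mouse, a narrower range than that of miR-96. miR-362-3p was not detected in sheep, and in mouse ran from 4.23% in virgin to 6.94% at lactation day 10.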

How the data were processed

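The 3 members and all lists were chosen with earlier results of these data known. The scanner files the authors deposited hold intensity values in arbitrary units, and their processed signal is background-subtracted and not normalized between arrays, per the file headers. Agilent Feature Extraction was version 10.5.1.1 per the file headers and 9.5 per the submitters' processing notes. The software also set the flags for detection and for spots well above background. A table of values deposited by the authors holds intensity too and equalled total signal times 1 constant per array, within 0.1% for 98.6% or more of the brighter miRNAs. Its column medians lay between -11.6 and 0.76, and the basis of the constants, and hence its scale and centring, stays unknown.

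Per the labels, 100 ng of total RNA with an integrity number of at least 6 was labelled with Cy3. Outlier spots were left out, spots were averaged per probe and probes per miRNA, and each array was divided by its reference percentile, floored at 2.90% of it and put on the log2 scale. limma 3.58.1 in R 4.3.3 fitted species plus stage class (6 residual degrees of freedom), or 1 mean per species and stage class (4 residual degrees of freedom) for species differences and changes within species. Of the 213 miRNAs tested, 28 were at the floor on all arrays. Precision is limited by having so few arrays. The rule for lower bounds and the treatment of values at the floor as ties in counts of non-overlap were set after the values were seen.

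Named miRNAs were the members, the passenger strands, miRNAs within 2 Mb by the positions in the deposited files, the miR-200 family, and the 5 most like the cluster among those at the floor on at most 5 arrays. miRNAs sharing a seed were not analysed here. The alternatives were other normalizations, background corrections, floors, filters and probes, the authors' table, the slide, each species alone and each array left out.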

Additional observations from a re-analysis of the deposited data

Results flagged for a closer look

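The change differed between the species in 1 instance. The species difference in the change from not pregnant to lactation was -3.28 for miR-183 by limma (adjusted p = 0.0135), from 6.08% of the reference in sheep cycle to no detection in sheep lactation, and from 1.74% in virgin mouse to 14.2% and 12.7% in mouse lactation. Cycle, sheep lactation and virgin are 1 array each, and the last 2 were at the floor. The error thus comes from the spread of other groups, and no spread within these 3 was measured. Virgin was also on another slide than the arrays it was compared with.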

How the results depend on the processing

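Of 552 changes of a member recomputed under an alternative, 489 stayed on the same side of the threshold without reversing, 36 of these with a change of 0, which has no direction. The others comprised 6 that lost a call, 12 that gained one and 45 that reversed. Of 108 steps, 97 kept direction. miR-96 and miR-183 shared direction in 6 of 7 steps under each of 5 alternatives and in 7 without scaling. No paired analysis was possible because no animal number in the labels links 1 array to another.

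In members called, the species difference from not pregnant to lactation gave 0 without scaling, with normexp, the lower floor or the shorter probes. Over all 213 miRNAs those settings called 0, 3, 0 and 11 in that order. With no filter on detection 2 members were called, against 399 of all 567 miRNAs. The authors' table gave 1 member, which was not miR-183. With arrays left out the members called in this comparison ranged from 0 to 1. Sheep against mouse gave 1 with the lower floor or the slide term and 2 on slide 1 alone, and 0 to 1 with arrays left out. Over all 213 miRNAs the lower floor called 95, the slide term 39 and slide 1 alone 34. For the mouse change, the authors' table gave 1 (miR-182, whose 2 gestation arrays were both at the floor there), against 1 of all 213 miRNAs. For the species difference from gestation to lactation that table gave 1, against 4 of all 213. For the mouse change and for lactation against not pregnant, leaving out an array can leave 1 array in a group. Calls in those fits are not given for these comparisons.

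Reversed changes are given in the order miR-96, miR-183, miR-182 where each reversed. Lactation against gestation: without scaling -0.59, -0.49 and -0.15; slide term -0.25 and slide 1 alone -0.081 for miR-96; sheep alone -1.13 and -0.046. Lactation against not pregnant: without scaling -0.65 and -0.55, slide term -1.10 and -0.10, slide 1 alone -2.19 and -0.85, sheep alone -2.98 and -1.07; arrays left out gave -1.70 to 3.07 and -0.69 to 2.03. Gestation against not pregnant: quantile -0.024 and -0.058, without scaling -0.062 and -0.061, authors' table -0.74 and -0.055, percentile over all miRNAs -0.19 and normexp -0.14 for miR-96. The slide term gave -0.84, -0.22 and -0.017 there, slide 1 alone -2.11, -1.09 and -0.027, and sheep alone -1.85 and -1.02. Arrays left out gave -2.27 to 2.50, -1.15 to 1.57 and -0.10 to 0.60. Without scaling, the species difference from gestation to lactation was 0.35 for miR-182, and the mouse change was -0.55 for miR-183 and -0.35 for miR-182. The cause of these reversals was not tested. Without scaling the median of all miRNAs itself moved by -0.68 in mouse and -0.79 in sheep from gestation to lactation. Signal over background limits what can be said of sheep lactation, where no member had a probe with most of its spots well above background.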
